A study of Homo sapiens with 4 samples.

Results

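The 22 Mb of the long arm of chromosome 10 between 60 and 82 Mb (hg19) were examined for binding of FOXA2 in PC3 cells, an androgen-independent prostate cancer cell line, with and without inhibition of the histone demethylase LSD1. Members are all peaks of the deposited lists whose summit lies in that interval: 263 of 14846 peaks in the GSK2879552 list and 363 of 21308 in the vehicle list, 626 of 36154 in all. The rest of chromosome 10 from 43 Mb onwards, with 276 GSK2879552 and 376 vehicle peaks, served for comparison. The stretch was chosen with peak numbers and peak strengths of these same lists known, so its density of peaks is described and not tested.

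The GSK2879552 group was treated with 50 µM of the compound for 4 hours. Medium with 5% charcoal-stripped serum is recorded for both groups. The vehicle group is labelled as vehicle control. Its treatment text repeats that of the GSK2879552 group, and its own treatment time is not stated separately. Both groups are the unmodified PC3 line, and no transgene or other agent is named. Each group consists of 2 sequencing lanes described as technical replicates, and both lanes of a group share 1 peak list. The spread between cultures is therefore not measured, no p-value is given, and intervals cover counting error only. The assay is named ATAC-seq in the descriptions of the samples; their titles and the series title name FOXA2 chromatin immunoprecipitation followed by sequencing (ChIP-seq), and that name is used here.

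FOXA2 is a forkhead transcription factor of endodermal tissues that can bind its sites in compact chromatin, and in prostate cancer it is known from androgen-independent and neuroendocrine tumours. LSD1 (KDM1A) removes methyl groups from histone H3 and from other proteins, and GSK2879552 is an irreversible inhibitor of its activity. A ChIP-seq peak is a short interval where sequenced fragments are denser than around it, and its summit is the position of highest density. This part of the long arm is known to carry, among others, genes of chromatin regulators such as ARID5B, JMJD1C, TET1 and KAT6B, the coactivator gene ZMIZ1, and KCNMA1, which encodes the pore of a calcium-activated potassium channel. In the RefSeq table of GRCh38.p14 the order of these genes along the chromosome is ARID5B, JMJD1C, TET1, KAT6B, KCNMA1, ZMIZ1. No peak was assigned to a gene, because the peaks are given on hg19 and the gene table on another build.

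The stretch held close to 1 in 2 of the FOXA2 peaks of chromosome 10 from 43 Mb, on 23.8% of its length. In the GSK2879552 list the share was 48.8% (263 of 539, exact 95% interval 44.5 to 53.1), and in the vehicle list 49.1% (363 of 739, 45.5 to 52.8). Peak density in the stretch was 11.95 peaks per Mb in GSK2879552 and 16.5 in vehicle. Between 43 and 60 Mb it was 7.24 and 9.71 peaks per Mb, and beyond 82 Mb, up to the last summit of the chromosome, 2.86 and 3.94. The value between 43 and 60 Mb averages over an uneven flank. Of its 123 GSK2879552 and 165 vehicle peaks, only 19 and 31 lay in the 8 Mb from 43 to 51 Mb. The others lay in the 9 Mb from 51 to 60 Mb, where peak density was thus above this average and nearer to that of the stretch. For peaks of the stretch, the nearest summit of the same list lay a median of 15252 bp away in GSK2879552 and 12218 bp in vehicle. Over the rest of chromosome 10 from 43 Mb these distances were 37878 and 23224 bp. Within 10 kb of another summit of their list lay 39.2% of the stretch's GSK2879552 peaks (33.2 to 45.3) and 43.3% of its vehicle peaks (38.1 to 48.5). For all peaks outside the stretch the shares were 24.1% (23.4 to 24.8) in GSK2879552 and 30.3% (29.7 to 30.95) in vehicle. Between 43 and 60 Mb they were 29.3% (21.4 to 38.1) and 32.1% (25.1 to 39.8). These distances are another form of the peak density and are likewise a description.

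Peaks were unevenly spread over the 22 bins of 1 Mb, with 0 to 31 GSK2879552 peaks (median 12.5) and 1 to 37 vehicle peaks (median 17.5) per bin. Each bin is called by the Mb at which it begins. Bin 63 was the fullest, with 31 GSK2879552 and 37 vehicle peaks, followed by bin 76 with 29 and 36. Bins 60 to 69 together carried 147 GSK2879552 and 200 vehicle peaks, and bins 75 to 80 carried 92 and 128. Between these zones, bins 70 to 74 held only 15 and 24 peaks. Bin 70 had no GSK2879552 peak and 4 vehicle peaks, and bin 73 had 1 peak in each list, at different positions 20816 bp apart. The longest interval without a summit inside the stretch ran for 1.14 Mb in GSK2879552, from 69981231 to 71120675, and for 1.06 Mb in vehicle, from 73610412 to 74672684.

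**Figure D1:**
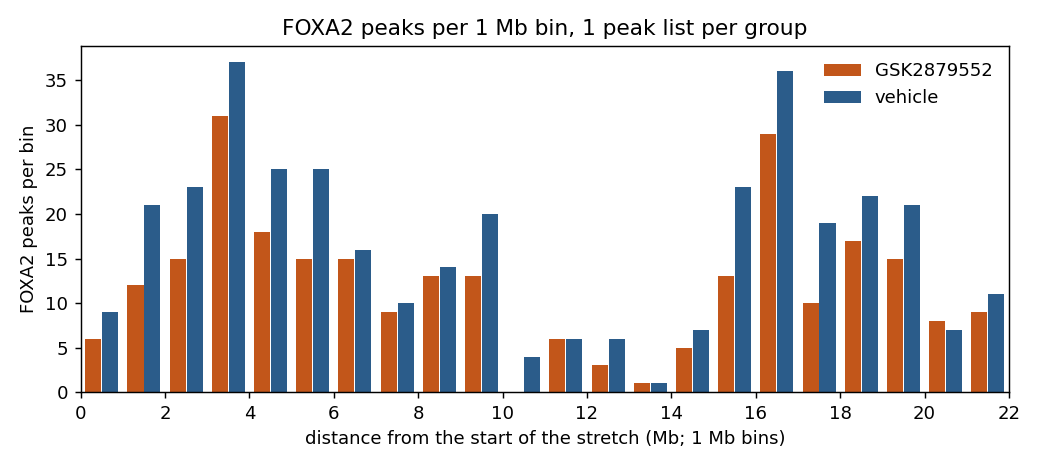
Number of FOXA2 peaks (vertical axis) in each 1 Mb bin, by distance of the bin from the start of the stretch in Mb (horizontal axis), for GSK2879552 (orange) and vehicle (blue), 1 peak list each. The tallest bars are bin 63 (31 and 37 peaks) and bin 76 (29 and 36), with the sparse bins 70 to 74 between both zones.

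On a finer scale the densest 200 kb window of the stretch was the same in both lists, chr10:63800001-64000000, with 13 GSK2879552 and 15 vehicle peaks. The next was chr10:76600001-76800000, with 11 and 12. In the window chr10:79000001-79200000, 7 GSK2879552 and 10 vehicle peaks were called, in chr10:78800001-79000000, 6 and 10, and in chr10:76400001-76600000, 7 and 9. Summits in chr10:76400001-76600000 were tall, with a median of 67 fragments in GSK2879552 and 61 in vehicle, a comparison of medians over unequal sets of peaks.

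Both ends of the stretch differ. At the 60 Mb end, peaks continued on either side: the last GSK2879552 peak outside had 17 fragments at its summit and the first inside 30, and in vehicle these were 12 and 21. At the 82 Mb end, the last peak inside had 20 fragments in GSK2879552 and 22 in vehicle, at nearly the same position. The next GSK2879552 summit followed 6.25 Mb further on, with 10 fragments, and the next vehicle summit 2.90 Mb further on, with 9 fragments. The beginning of the stretch is thus a choice of position, whereas its end falls where called peaks stop for some Mb in both lists.

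Summits of the stretch were tall in fragment number but stood on a high local background. Both quantities, fragments over the summit and background beneath it, were worked back from the authors' fold enrichment and −log10 p, which are given per peak. The local background is the number of fragments per position that the peak caller expected from the reads around the summit, and no peak of either list has one under a floor of 1.08. Whether these reads came from the immunoprecipitated library or from a control library is not given in the sources used here. In the stretch the median summit had 31 fragments in GSK2879552 (interquartile range 22 to 47) and 32 in vehicle (22 to 50), against 18 (13 to 25) and 18 (14 to 27) for all peaks outside it. The median local background was 4.44 fragments in GSK2879552 (interquartile range 3.44 to 5.70) and 4.45 in vehicle (3.29 to 5.57), against 1.70 (1.31 to 2.32) and 1.66 (1.30 to 2.28) outside. As reads of a library that was not rescaled, this background amounts to 264 GSK2879552 and 254 vehicle reads per 10 kb in the stretch, against 101 and 95 outside. A background of at least 2 fragments was found at 256 of 263 GSK2879552 peaks (97.3%) and 349 of 363 vehicle peaks (96.1%), against 35.5% and 34.0% of the peaks outside.

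The fold enrichment, which divides fragments by background, did not stand out in the same way. Its median in the stretch was 5.85 in GSK2879552 (95% interval of the median 5.52 to 6.25) and 6.41 in vehicle (6.08 to 6.82). For all peaks outside the stretch the medians were 6.63 (6.59 to 6.67) and 7.08 (7.01 to 7.13). Against these, the median was lower in the stretch by fold and higher by fragments. Between 43 and 60 Mb the median fold was 5.78 (5.36 to 6.40) in GSK2879552 and 6.42 (5.74 to 7.03) in vehicle, close to the stretch. The stretch makes up 1.77% of the GSK2879552 and 1.70% of the vehicle list. Of the 1000 peaks with the most fragments it held 6.9% in GSK2879552 and 7.3% in vehicle, and of the 1000 with the highest fold 2.3% and 2.1%. Among the 1000 with the most fragments the share of the stretch was thus above its share of the list. Among the 1000 with the highest fold, the exact 95% intervals were 1.46 to 3.43 in GSK2879552 and 1.30 to 3.19 in vehicle. Both include the share of the list that lies in the stretch. Of the 100 strongest, it held 3 GSK2879552 and 6 vehicle peaks by fragments, 3 and 3 by fold, and 13 and 17 by −log10 p. PC3 cells have an aneuploid, rearranged genome; the number of copies of this stretch is not given in the sources used here, and the part of copy number in the background was not tested.

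**Figure D2:**
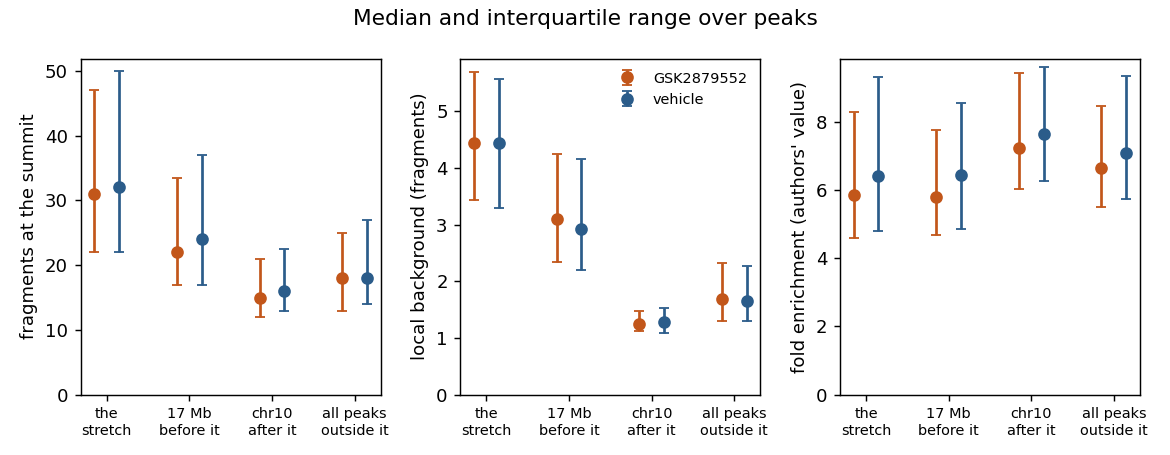
Median (points) and interquartile range (bars) over peaks of the fragments at the summit, the local background in fragments and the authors' fold enrichment, for GSK2879552 (orange) and vehicle (blue), in the stretch, in the 17 Mb before it from 43 Mb, on chromosome 10 after it and in all peaks outside it. Fragments and background are higher in the stretch than in all peaks outside it (31 and 32 against 18 and 18 fragments), and the fold is lower (5.85 and 6.41 against 6.63 and 7.08).

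The background changed along the arm in the same places in both libraries. Within the stretch, the bin medians ran from 1.08 to 6.28 fragments over the 21 bins with a GSK2879552 peak and from 1.08 to 6.72 over the 22 bins with a vehicle peak. The run of bins 74 to 80 held the highest, with 4.55 to 6.28 in GSK2879552 and 4.78 to 6.72 in vehicle. Bin 63 formed another high point, with 5.28 and 5.29. In bin 72 the medians were 2.81 and 3.22, and both peaks of bin 73 stood at the floor. In bin 74 the medians were 5.54 and 5.18. Across the 21 bins the 2 lists gave nearly the same order of backgrounds (Spearman's rho 0.97, a description: most peaks are shared by both lists). Bins with more background also had taller summits, with a rho between median background and median fragments of 0.76 in GSK2879552 (21 bins) and 0.81 in vehicle (22 bins). These measures share the library and may share the reads of the peaks themselves.

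Outside the stretch the raised background went on towards the centromere, and it was low at most summits beyond 82 Mb. Background is known only at called summits. After the last summit of the stretch the next lay 6.25 Mb on in GSK2879552 and 2.90 Mb on in vehicle. Where the background falls within these gaps is therefore not known. In bins 51 to 59 the bin medians ran from 2.08 to 5.39 fragments in GSK2879552 and from 2.24 to 4.95 in vehicle, with the highest value in bin 54 in both. In bins 43 to 50 they ran from 1.39 to 2.65 and from 1.49 to 2.83. Beyond 82 Mb the 39 bins with a GSK2879552 peak had medians of 1.08 to 2.76 and the 40 bins with a vehicle peak 1.08 to 2.097. Taken over peaks, the median background was 3.11 in GSK2879552 and 2.92 in vehicle between 43 and 60 Mb, and 1.24 and 1.28 beyond 82 Mb. Summits followed, with a median of 22 and 24 fragments between 43 and 60 Mb and 15 and 16 beyond 82 Mb. Only 8 of 153 GSK2879552 and 12 of 211 vehicle peaks beyond 82 Mb had a background of 2 or more.

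**Figure D3:**
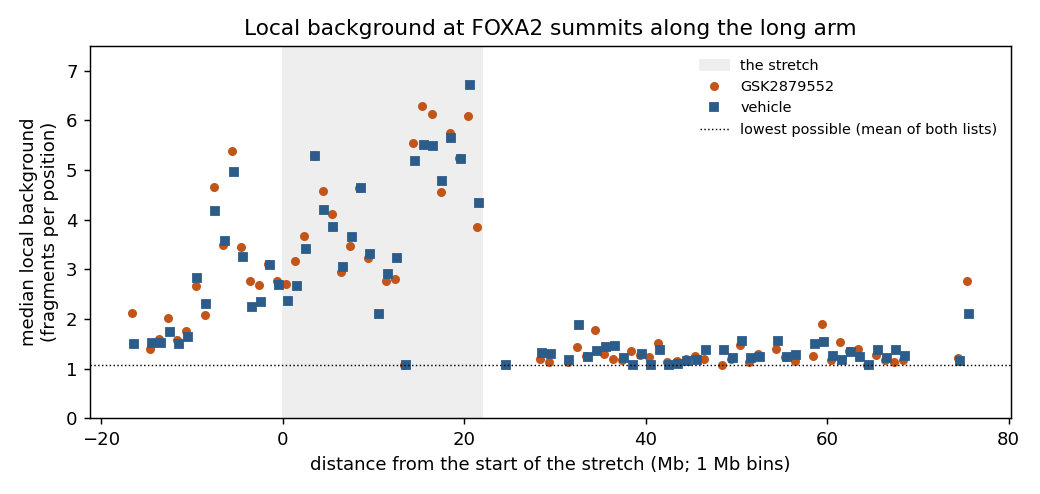
Median local background at FOXA2 summits (vertical axis, fragments per position) in 1 Mb bins of chromosome 10 from 43 Mb, by distance from the start of the stretch in Mb (horizontal axis), for GSK2879552 (orange circles) and vehicle (blue squares). The stretch is shaded. Values reach 6.28 and 6.72 in it and stay at or under 2.76 and 2.097 beyond its end, close to the floor of 1.08 (dotted).

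A background taken from the immunoprecipitated library would hold the reads of the peaks themselves, so it was also summarised where peaks are few. The reads of each remaining summit would still be in its own background. These settings therefore cannot tell the background apart from the reads of the peaks. Among peaks with no other summit of their list within 10 kb, the median background was 4.28 in GSK2879552 (160 peaks) and 3.91 in vehicle (206 peaks), against 1.58 (11069 peaks) and 1.51 (14594 peaks) outside. With peaks of more than 20 fragments left out as well, it was 2.94 and 2.64 in the stretch, and no value outside was taken at this setting. Among all peaks with under 20 fragments, near others or not, the median background was 2.94 in GSK2879552 and 2.835 in vehicle in the stretch. Outside it was 1.41 and 1.365. Restricting to low summits also favours positions of low background, because a low summit on a high background is not called.

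Fewer FOXA2 peaks were called in the stretch after GSK2879552. The ratio of peak numbers was 0.725 (263 over 363, exact 95% interval 0.616 to 0.851), and the covered length was 73.6 kb in GSK2879552 and 106.3 kb in vehicle. On the rest of chromosome 10 from 43 Mb the ratio was 0.734 (0.626 to 0.860), and for all peaks outside the stretch 0.696 (0.682 to 0.711). The interval of the stretch includes both other ratios, and a difference between them was not tested. This ratio compares the lengths of the lists and does not follow single sites, whose overlapped shares are given below. Of the 22 bins, 19 had fewer GSK2879552 than vehicle peaks, bins 71 and 73 had equal numbers, and bin 80 had 8 GSK2879552 and 7 vehicle peaks. Over the 15 bins with at least 10 vehicle peaks the ratio ranged from 0.526 in bin 77 (10 and 19 peaks) to 0.938 in bin 66 (15 and 16).

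Most sites of the shorter list were sites of the longer one. Of the GSK2879552 peaks of the stretch, 248 of 263 (94.3%, 90.8 to 96.8) overlapped a vehicle peak by at least 1 bp. The 15 that did not make up a share to be read against 10.8% of the whole GSK2879552 list. Of the vehicle peaks, 249 of 363 (68.6%, 63.5 to 73.3) shared at least 1 bp with a GSK2879552 peak, and 114 were found in vehicle alone, against 38% without overlap over the whole vehicle list. For all peaks outside the stretch the overlapped shares were 89.1% (88.6 to 89.6) in GSK2879552 and 61.9% (61.3 to 62.6) in vehicle. On the rest of chromosome 10 from 43 Mb they were 88.0% (83.6 to 91.6) and 64.1% (59.02 to 68.9). The stretch was chosen with peak strengths known, and the overlapped share goes with strength, so these shares are a description.

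The higher overlapped share went together with stronger peaks in the stretch. A −log10 p of 20 or more was held by 44.6% of the stretch's vehicle peaks, against 28.5% of the vehicle peaks outside. Within classes of −log10 p the share overlapped was close to that outside. It was 98.1% in the stretch (94.7 to 99.6) against 97.4% outside at 20 or more, 57.8% (48.8 to 66.5) against 61.4% from 10 to under 20, and 21.9% (13.1 to 33.1) against 25.6% under 10. Grouped by fragments instead, the stretch had a lower share at moderate heights than all vehicle peaks outside it. Of vehicle peaks with 20 to 39 fragments, 105 of 177 (59.3%, 51.7 to 66.6) were overlapped in the stretch, against 6015 of 7016 (85.7%, 84.9 to 86.5) outside. These peaks had a median background of 4.17 fragments in the stretch and 1.96 outside. Between 43 and 60 Mb, 54 of 75 such peaks (72.0%, 60.4 to 81.8) were overlapped, at a median background of 3.36. That interval overlaps the interval of the stretch. At 40 fragments or more, 130 of 131 vehicle peaks of the stretch were overlapped (99.2%, 95.8 to 99.98), against 98.4% outside.

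**Figure D4:**
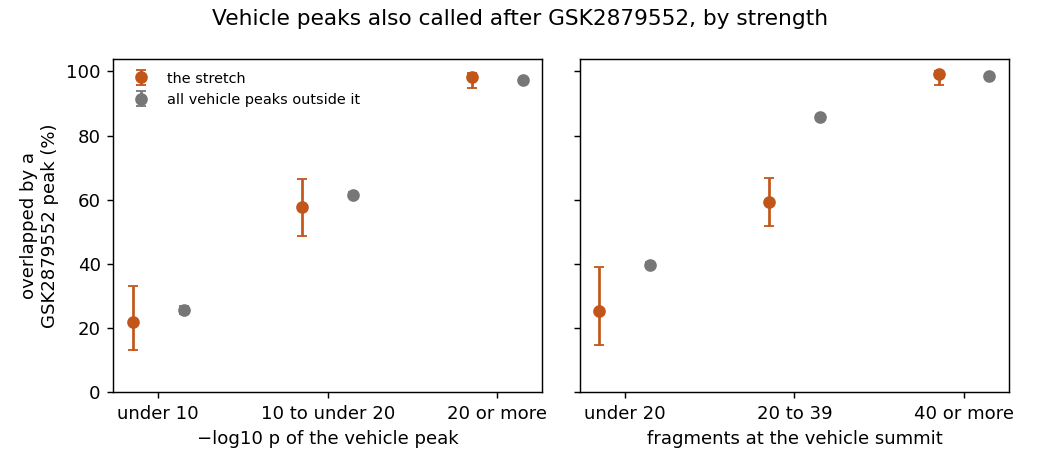
Percentage of vehicle peaks overlapped by a GSK2879552 peak (vertical axis), by −log10 p (left) and by fragments at the summit (right), for the stretch (orange) and all vehicle peaks outside it (grey), with exact 95% intervals. By −log10 p both sets lie close together in all 3 classes. By fragments the stretch lies lower at 20 to 39 (59.3% against 85.7%) and under 20 (25.5% against 39.5%).

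Bin by bin, the overlapped share of vehicle peaks ranged from 52.4% in bin 61 (11 of 21) to 92.9% in bin 68 (13 of 14), over the 15 bins with at least 10 vehicle peaks. In the fullest bins, 63 and 76, it was 78.4% (29 of 37) and 80.6% (29 of 36). In bin 80, 7 of 7 were overlapped, and their median was 66 fragments, the highest of any bin in vehicle.

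At sites called in both lists, summits carried fewer fragments after GSK2879552. Shared peaks were reduced to 247 pairs of mutual best partners, with a median of 31 fragments in GSK2879552 (interquartile range 22.5 to 48) and 41 in vehicle (30 to 66). Fragments were lower in GSK2879552 at 220 pairs (89.1%, 84.5 to 92.7), equal at 4 and higher at 23, against 78% of pairs lower in the whole series. The median log2 ratio, scaled by the floors of both libraries, was -0.37 (95% interval of the median -0.41 to -0.32), a ratio of 0.776. On the rest of chromosome 10 from 43 Mb it was -0.24 (-0.31 to -0.19, 240 pairs), and over the 12953 pairs outside the stretch -0.32.

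The pairs of the stretch are also taller than those elsewhere, so the ratio is given by height as well. A geometric mean of both fragment numbers under 20 was found at only 19 of 247 pairs of the stretch, against 109 of 240 on the rest of chromosome 10 from 43 Mb. In these low pairs the median log2 ratio was -0.17 (-0.37 to 0.07) in the stretch, -0.14 (-0.24 to -0.08) on the rest of chromosome 10 from 43 Mb and -0.27 (-0.28 to -0.25) over all pairs outside. In pairs of 20 to under 40 fragments the median log2 ratio was -0.37 (-0.42 to -0.29) in the stretch, -0.34 (-0.42 to -0.24) on the rest of chromosome 10 from 43 Mb and -0.39 (-0.40 to -0.37) over all pairs outside. In pairs of 40 or more it was -0.41 (-0.48 to -0.32), -0.39 (-0.49 to -0.18) and -0.32 (-0.34 to -0.30). At like heights the intervals of the stretch and of the rest of chromosome 10 thus overlap. Over all pairs outside, the ratio did not follow the order of height, being lowest in the middle class.

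The local background at the same pairs differed little between the libraries. Scaled in the same way, its median log2 ratio was -0.04 (-0.06 to -0.02) in the stretch, with medians of 4.64 fragments in GSK2879552 and 4.795 in vehicle. Over all pairs outside it was -0.06 (-0.07 to -0.06). Counted above the background, summits of the stretch had a median log2 ratio of -0.42 (-0.48 to -0.36). By this count it was -0.27 (-0.33 to -0.20) on the rest of chromosome 10 from 43 Mb and -0.35 (-0.36 to -0.34) over all pairs outside. Fragments were at least 1.5-fold lower at 54 pairs of the stretch (21.9%, 16.9 to 27.5), against 24.9% of pairs in the whole series. They were at least 1.5-fold higher at 0 pairs, against 0.826% in the whole series.

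**Figure D5:**
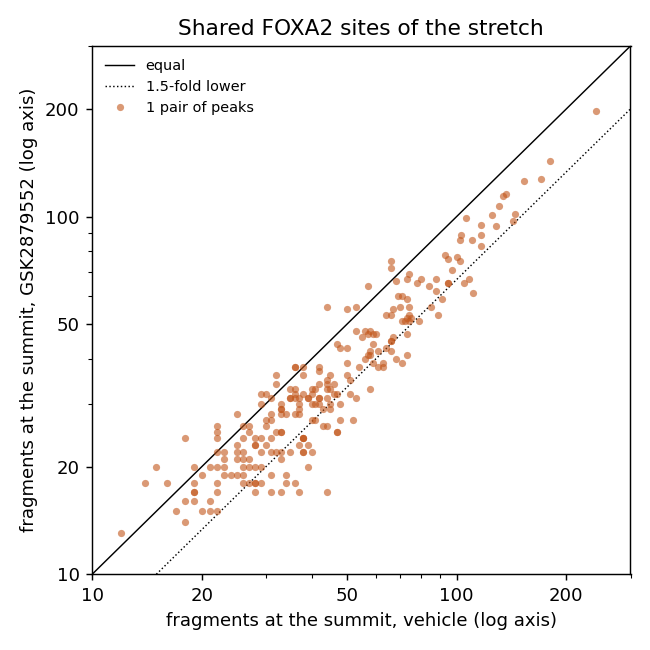
Fragments at the summit in GSK2879552 (vertical log axis) against vehicle (horizontal log axis) for the 247 pairs of the stretch, 1 point each. Of these, 220 lie under the line of equality (solid) and 54 at or beyond a scaled 1.5-fold lower number, close to the dotted line, which is drawn unscaled.

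The 10 pairs with the highest vehicle −log10 p carried fewer fragments in GSK2879552 by different amounts. At chr10:76635608-76636074, the first of them, the summit had 197 fragments in GSK2879552 and 242 in vehicle over backgrounds of 10.3 and 10.96. The site at chr10:80218761-80219147 had 127 and 170 fragments over a lower background, 5.49 and 6.81, and the highest fold of the stretch in both lists, 19.7 and 21.9. At chr10:76559478-76560011 the numbers were 143 and 180. These sites lie in bins 76 and 80, within the zone of highest background.

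The fourth, at chr10:68675809-68676152, had 107 fragments in GSK2879552 and 131 in vehicle, and the fifth, at chr10:79065448-79065806, had 116 and 137. At chr10:80733272-80733659, 102 and 145 fragments were found. The site at chr10:62042600-62042975 had 89 and 117 over a background of only 4.28 and 5.13, and hence a fold of 17.03 and 19.3, above the 11.4 and 14.3 of chr10:80733272-80733659. Ranking by fragments and by fold therefore orders these sites differently.

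The largest relative difference among the 10 was at chr10:67034991-67035382, with 61 fragments in GSK2879552 and 111 in vehicle, a scaled log2 ratio of -0.87. Both remaining sites, chr10:75857526-75857877 and chr10:78733573-78734048, had 114 and 134 and 94 and 128 fragments. All 10 were lower in GSK2879552, with log2 ratios from -0.87 to -0.24, and were chosen by their vehicle values, which favours lower numbers in the other list. Height alone would have added chr10:78923730-78924051, with 126 and 153 fragments, and chr10:78920375-78920779, with 97 and 143. They stand on backgrounds of 12.7 and 14.2 and of 11.4 and 13.1, and are named here after their values were seen.

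The strongest vehicle peak of each bin shows the sites along the stretch. Of 22 such peaks, 20 had a partner, and all 20 had fewer fragments in GSK2879552, with log2 ratios from -0.87 to -0.16. They too were chosen by their vehicle values, and this count stands beside 89.1% of all pairs of the stretch and 78% in the whole series. Those without a partner were the 15-fragment peak at chr10:70094651-70094851 in bin 70 and the 14-fragment peak at chr10:73610305-73610498 in bin 73. The 20 partners had 28 to 197 fragments in GSK2879552 (median 71), and the 22 vehicle peaks had 14 to 242 (median 102). Among these, chr10:64385235-64385592 had 67 and 108 fragments, chr10:71206312-71206762 had 65 and 105, and chr10:61931127-61931538 had 33 and 58. Smaller differences were found at chr10:74807779-74808063, with 43 and 48, at chr10:69577989-69578432, with 86 and 102, and at chr10:65313832-65314171, with 76 and 95. The site at chr10:71206312-71206762 shows that the sparse zone also holds a tall summit, as it lies in bin 71, which has 6 peaks in each list.

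The lowest ratios of the stretch were found at moderate summits. At chr10:61005500-61006200 there were 17 fragments in GSK2879552 and 44 in vehicle, but these summits lay 368 bp apart within a wide vehicle peak, and partners were matched by shared length. Another GSK2879552 peak under the same vehicle peak, chr10:61005586-61005834, had 26 fragments and a summit 64 bp from the vehicle summit. Set against the 44 in vehicle, it gives a log2 ratio of -0.76 in place of -1.37. At chr10:76237388-76237682 there were 17 and 37 fragments with summits 14 bp apart, over similar backgrounds of 5.41 and 4.95. At chr10:66882918-66883227 there were 18 and 36, with a background of 2.94 in both. The highest ratios were at low summits: chr10:61925523-61925768 had 24 fragments in GSK2879552 and 18 in vehicle, chr10:69840925-69841242 had 20 and 15, and chr10:68845197-68845512 had 18 and 14. These are the extremes of 247 pairs, and numbers of this size carry a counting error of several fragments.

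Vehicle peaks without a GSK2879552 counterpart were of moderate height. The strongest, at chr10:75351697-75351979, had 46 fragments over a background of 5.49, with 84698 bp to the closest GSK2879552 summit. It was followed by chr10:81584282-81584570 with 35 fragments and chr10:61883030-61883329 with 33, which lay 17650 and 16698 bp from one. The next, chr10:71992242-71992468, chr10:61553751-61553990 and chr10:60227777-60227974, had 24 fragments each. The peak at chr10:71992242-71992468 lay 368241 bp from any GSK2879552 summit. A site in 1 list alone is one that was not called in the other, not one shown to be free of FOXA2.

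Only 15 peaks were found in GSK2879552 alone. The strongest by −log10 p was chr10:71491055-71491302 with 17 fragments over a background of 1.70. It was followed by chr10:81181162-81181415 with 26 over 4.50 and by chr10:73631106-73631343 with 14 over the floor. The next were chr10:80501376-80501630 with 22 fragments, chr10:81410635-81410817 with 12 and chr10:78628370-78628544 with 22. The peak at chr10:80501376-80501630 is the one by which bin 80 has more GSK2879552 than vehicle peaks. None of these 6 had a vehicle summit within 17 kb, the nearest being 17671 bp away.

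Peaks of the stretch were wider than those elsewhere and were narrower in GSK2879552 than in vehicle. The median width was 268 bp in GSK2879552 (95% interval of the median 254 to 282) and 285 bp in vehicle (276 to 295), against 242 bp (240 to 243) and 258 bp (257 to 259) outside the stretch. Between 43 and 60 Mb it was 253 bp (231 to 276) and 270 bp (253 to 285), with intervals that overlap those of the stretch. In pairs, the GSK2879552 peak was a median of 34 bp narrower than its vehicle partner (change of -34 bp, -41 to -24), and it was narrower at 194 of 247 pairs (78.5%). Outside, the median change was -33 bp, and 74.97% were narrower. The shortest interval of a list is 168 bp in GSK2879552 and 175 bp in vehicle, which limits how narrow a peak can be. Paired summits of the stretch lay a median of 18 bp apart (16 to 21), against 23 bp outside (23 to 24), and 8 of 247 lay more than 100 bp apart. Those between 43 and 60 Mb lay a median of 19 bp apart (14 to 24). Summits with another summit of their list within 1 kb numbered 19 in GSK2879552 (7.22%, 4.41 to 11.1) and 29 in vehicle (7.99%, 5.42 to 11.3), against 4.54% and 5.47% outside. On the rest of chromosome 10 from 43 Mb the shares were 6.52% (3.91 to 10.1) and 9.04% (6.34 to 12.4), and their intervals overlap those of the stretch.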

How the data were processed

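FOXA2 ChIP-seq of PC3 cells was deposited as 1 peak list per group on hg19, each covering 2 lanes. The tools, per the submitters' processing notes, were MACS2 2.1.2, SAMtools 0.1.18 and BWA 0.7.2. Not given in the sources used here are their options, the threshold, duplicate handling and any control library. The deposited fold enrichment is a ratio with a pseudocount of 1, and the authors' peak caller gave the deposited −log10 p-value and q-value. The deposited score repeats the −log10 q multiplied by 10.

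Fragments at a summit (a whole number under 1500) and the background were solved from the fold and the p-value together. Every peak of either list had a solution within 0.001 of its −log10 p, and 1000 simulated summits per list were all recovered. The fragment length was taken as the shortest interval (168 bp in GSK2879552, 175 bp in vehicle). The floor then equals 6.44 reads per kb in GSK2879552 and 6.17 in vehicle, if the background came from the immunoprecipitated library itself. Overlap meant 1 bp (checked with bedtools 2.31.1). Shares carry exact (Clopper-Pearson) intervals and medians exact order-statistic intervals, which treat peaks as independent. Python 3.11.15 with scipy 1.17.1 was used.

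Named peaks are the 10 pairs with the highest vehicle −log10 p, the strongest vehicle peak per bin, the 6 strongest of each list alone, and the 3 lowest and 3 highest ratios at backgrounds under 10. The stretch, the rules and the alternatives were chosen with earlier results of these data known. An hg19 genome or annotation was not used here, so no sequence is shown.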

Additional observations from a re-analysis of the deposited data

How the results depend on the processing

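Of 42 alternative values for 9 results, 26 stayed within the interval of the value reported, 16 moved beyond it and 0 changed direction. A direction applies only to the ratio of peak numbers, the log2 ratio and the share of bins with fewer GSK2879552 peaks. The other shares and the backgrounds have none. With both lists at a −log10 q of at least 10 (146 GSK2879552 and 233 vehicle peaks), the overlapped share was 97.3% of GSK2879552 and 60.9% of vehicle peaks, the share of chromosome 10 from 43 Mb was 54.7% and 54.3%, and the median background was 5.02 and 4.85. At a fold of at least 5, the overlapped share of vehicle peaks was 62.3%, and the share of chromosome 10 from 43 Mb was 42.8% in GSK2879552 and 44.5% in vehicle; a limit on fold removes more peaks where the background is high. Fragments above the background gave a median log2 ratio of -0.42. As a share of the whole list, the stretch held 1.77% of GSK2879552 and 1.70% of vehicle peaks, another denominator by construction. The vehicle background was 3.91 without summits near others, and 2.94 (GSK2879552) and 2.64 (vehicle) with at most 20 fragments as well, a setting chosen after seeing the data. With bins of 2 Mb, 100% (11 of 11) had fewer GSK2879552 peaks. Beyond what is said, the cause was not tested. The remaining settings (a −log10 q of 5, other overlap and pairing rules, edges at 61 and 81 Mb, no scaling, no positions with a background of 10 or more, moved bins) moved none of the results they were run for beyond its interval. Lanes could not be left out, as a list is made from both. No paired analysis was possible because the lanes of a group share their peak list.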

Other observations

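A raised local background at FOXA2 summits was concentrated on few chromosomes. Of 1320 bins of 1 Mb with at least 5 peaks in both lists, 84 (6.36%) had a median background of 3 fragments or more in both. Chromosome 10 had 27 of its 58 such bins in this class, 15 of 19 in the 60 to 82 Mb stretch and 12 of 39 elsewhere on the chromosome. Chromosome 14 followed with 15 of 52 and chromosome 8 with 14 of 79, and no other chromosome had more than 5. The limits of 3 fragments and 5 peaks were chosen after the backgrounds had been seen, and some of these bins lie on contigs not placed on a chromosome. Whether others lie at repeat-rich positions near centromeres was not examined. What sets the background in these bins was not tested.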
